A study of Rattus norvegicus with 8 samples.

Results

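Rab GTPase genes were examined in NR8383, an alveolar macrophage line of the rat, after exposure to the multi-walled carbon nanotube NM401. Members were the non-control probes whose gene name in the files was Rab followed by a number and at most 1 letter from a to d. The rule reads the name alone, and it was set with earlier results of these data known. This gave 54 of the 36306 gene names on the array, carried by 85 of its 45598 probes. Of the 54 genes, 41 were tested, each through a probe whose signal the scanner software marked as well above background in 4 or more of the 8 arrays, and the other 13 were not. The exposed group held 4 arrays of cells kept for 4 h with NM401 at 0.17 µg/mL, and the control group held 4 arrays of cells kept for 4 h at 0 µg/mL. Both groups were in medium without fetal bovine serum during the exposure, and the labels call the 4 arrays of a group biological replicates. NR8383 is 1 established line that came from lung lavage of a normal rat, so no other cell type of the lung was in the dish by design. The comparison asks which Rab transcripts differ between cells with and without the nanotubes.

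Rab proteins are small GTPases that act as switches of membrane traffic. Guanine nucleotide exchange factors load them with GTP on a given membrane, the GTP form recruits effectors such as tethers, motors and lipid kinases, and GTPase-activating proteins return them to the GDP form. Each organelle carries its own set: Rab5 proteins on early endosomes, Rab7 proteins on late endosomes and lysosomes, Rab4 and Rab11 proteins on recycling endosomes, Rab27 and Rab3 proteins on secretory vesicles, and Rab1, Rab2 and Rab6 proteins between the endoplasmic reticulum (ER) and the Golgi. In a macrophage an ingested particle lies in a phagosome that passes from a Rab5-bearing to a Rab7-bearing stage before it fuses with lysosomes. The array measures transcripts, not GTP loading or the place of the protein.

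The probes below show what was measured for paralogues of similar sequence. Rab5a and Rab5c encode near copies of the same early endosome GTPase, and their probes overlap in 56 aligned bases, of which 44 match and 12, printed in capitals, do not. In rat build rn4, per the file headers, the Rab5a probe spans chr9:1492943-1499629 and the Rab5c probe spans chr10:89653453-89653946, both on the minus strand. Spans of 6687 and 494 bases for probes of 60 bases mean that both probes cross introns, so they read spliced transcripts. Sequences are written 5′ to 3′.
Rab5a: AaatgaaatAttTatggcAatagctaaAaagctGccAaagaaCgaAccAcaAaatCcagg
Rab5c: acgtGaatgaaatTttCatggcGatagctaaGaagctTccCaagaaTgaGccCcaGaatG
Probes of 3 members whose transcripts differed between the groups are shown as examples of a late endosome, a recycling and a secretory Rab, with no capitals. The Rab24 probe lies at chr17:15354962-15355021 on the plus strand, the Rab11b probe spans chr7:16233727-16234468 on the minus strand, and the Rab13 probe spans chr2:182464642-182464781 on the plus strand, all in rn4. The spans of Rab11b (742 bases) and Rab13 (140 bases) also cross introns.
Rab24: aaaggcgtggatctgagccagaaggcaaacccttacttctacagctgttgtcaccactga
Rab11b: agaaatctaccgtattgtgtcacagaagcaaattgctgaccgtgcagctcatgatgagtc
Rab13: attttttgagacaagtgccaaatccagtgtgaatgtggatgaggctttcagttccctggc

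The 250 bases before the start site are shown for 4 of the called members, chosen as examples after their values were seen: Rab7b, Rab34 and Rab9a of the late endosome and Rab21 of the early endosome. They are RefSeq sequences in build GRCr8, at chr13:45673195-45673444 for Rab7b, chr10:63581292-63581541 for Rab34, chrX:31609839-31610088 for Rab9a, all on the plus strand, and at chr7:52814944-52815193 on the minus strand for Rab21. A pair of motifs was searched on both strands of the 250 bases before a start site, and these motifs were chosen after the values had been seen. Capitals mark the AP-1 site TGACTCA in Rab9a and, read from the other strand, in Rab34 and the palindrome CACGTG, the E-box of the kind that TFEB and MYC bind, in Rab21. The motifs do not overlap each other. The AP-1 letters were found in 4.05% of 33469 RefSeq stretches of that length (1354) and in 4 of 44 Rab promoters, those of Rab27b, Rab34, Rab4b and Rab9a. The E-box letters were found in 5.59% of the stretches (1872) and in 3 of the 44 of Rab genes, those of Rab21, Rab31 and Rab5a. A match is a run of letters and not a shown binding site, and in each set of genes the calls differed: Rab34 and Rab9a were higher, Rab4b lower and Rab27b not tested, and Rab21 was higher, Rab31 lower and Rab5a not called.
Rab7b: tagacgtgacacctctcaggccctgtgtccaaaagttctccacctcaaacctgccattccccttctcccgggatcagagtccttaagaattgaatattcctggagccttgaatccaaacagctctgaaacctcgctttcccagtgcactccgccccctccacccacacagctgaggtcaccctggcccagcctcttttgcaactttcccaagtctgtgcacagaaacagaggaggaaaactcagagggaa
Rab34: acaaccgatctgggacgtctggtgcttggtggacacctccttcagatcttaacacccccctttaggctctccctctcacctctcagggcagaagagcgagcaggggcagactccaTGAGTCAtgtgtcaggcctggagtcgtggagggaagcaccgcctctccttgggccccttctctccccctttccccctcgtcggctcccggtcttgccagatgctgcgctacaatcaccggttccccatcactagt
Rab9a: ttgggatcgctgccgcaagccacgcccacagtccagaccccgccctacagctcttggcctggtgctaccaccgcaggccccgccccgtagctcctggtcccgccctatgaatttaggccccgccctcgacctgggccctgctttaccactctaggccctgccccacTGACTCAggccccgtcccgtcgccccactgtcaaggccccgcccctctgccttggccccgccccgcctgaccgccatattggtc
Rab21: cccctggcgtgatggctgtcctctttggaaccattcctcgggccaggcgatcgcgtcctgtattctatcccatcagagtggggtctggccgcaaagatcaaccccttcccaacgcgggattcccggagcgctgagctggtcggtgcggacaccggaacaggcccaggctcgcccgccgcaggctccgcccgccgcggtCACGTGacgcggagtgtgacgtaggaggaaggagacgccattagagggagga

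Of 15 macrophage marker genes, 12 were well above background on all 8 arrays, and Cd163 and Marco were on none. Their summed level, in units of the array's 75th percentile, ranged from 131 to 138 on NM401 arrays and from 146 to 154 on control arrays. The sum over neutrophil markers ranged from 0.331 to 0.45 on NM401 arrays and from 0.494 to 0.681 on control arrays, and that over lymphocyte markers from 0.201 to 0.3 on NM401 arrays and from 0.378 to 0.468 on control arrays. The sums over epithelial markers and over fibroblast and endothelium markers overlapped between the groups. The part of these markers in the results was not tested. Of markers of epithelium, neutrophils, lymphocytes, and fibroblasts and endothelium, 2 of 11, 1 of 10, 2 of 9 and 5 of 11 were well above background on all 8 arrays. These were Ager and Foxj1, Camp, Cd3d and Cd4, and Col1a2, Dcn, Cdh5, Pecam1 and Vwf. Among the markers on no array were Epcam, Elane, Cd3e and Col1a1. Mpo was well above background on 4 control arrays and 0 NM401 arrays. The macrophage marker Adgre1 was so on 1 control array and 4 NM401 arrays. The 75th percentile of the signal was 2690 ± 172 on NM401 arrays and 1240 ± 224 on control arrays (SD, n = 4 each; exact two-sided permutation p = 0.0286, the lowest this design can give). Slide 2 held NM401 replicates 2 to 4, and slide 1 held NM401 replicate 1 with the whole control group, so a fit within slide 1 rests on 1 NM401 array. Each group had its own row on the slides, row 2 for NM401 and row 1 for control, and the effects of row and exposure cannot be told apart. The 246 spike-in spots well above background on all arrays had a log2 difference of -2.29 between NM401 and control, and all 41 tested Rab genes lay above it. The share of all genes above it was not computed, and their median was -0.10, so this does not set the Rab genes apart. Values below are log2 signals relative to the 75th percentile of each array, so a direction is relative to the bulk of that array, and fewer cells with a transcript cannot be told apart from less of it per cell.

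With NM401, 10 of the 41 tested Rab genes were higher and 6 were lower (limma, Benjamini-Hochberg adjusted p below 0.05 over all 21685 probes tested), and 25 did not pass. That is 24.4% and 14.6% of the Rab genes, against 21.9% and 35.4% of all 17445 genes tested, of which 57.3% were called in either direction. With scaling to the 75th percentile the share called higher was thus near that of all genes, and the share called lower was less. The 4 NM401 and 4 control values did not overlap in 19 Rab genes (46.3%), against 53.2% of all genes. The median log2 difference, NM401 minus control, was 0.07 over the 41 Rab genes and -0.10 over all genes. A difference of at least 1.5-fold was called for 3 Rab genes, all higher and of the late endosome class (Rab7b, Rab34 and Rab36), where 22.3% of all genes passed this limit, 7.04% higher and 15.2% lower. Rab36 was well above background on only 2 control arrays, and its difference was near 0 after normexp background correction (-0.02). The split depended on the scaling: with the 75th percentile 38.2% of the calls over all genes were higher, with quantile normalisation 51.7% and with median scaling 64.5%. Of the 41 Rab genes, 15 were higher and 5 lower after quantile normalisation, against 28.6% and 26.7% of all genes. After median scaling 25 of the 41 were higher and 0 lower (limma, 1 lower at an unadjusted p below 0.05), against 35% and 19.3% of all genes. With slide as a block 6 were higher and 2 lower, against 12.7% and 20.2% of all genes, and within slide 1 there were 2 and 0 (limma, 1 lower at an unadjusted p below 0.05), against 4.33% and 7.8%. The smaller counts in these 2 fits thus go with smaller shares over all genes.

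**Figure D1:**
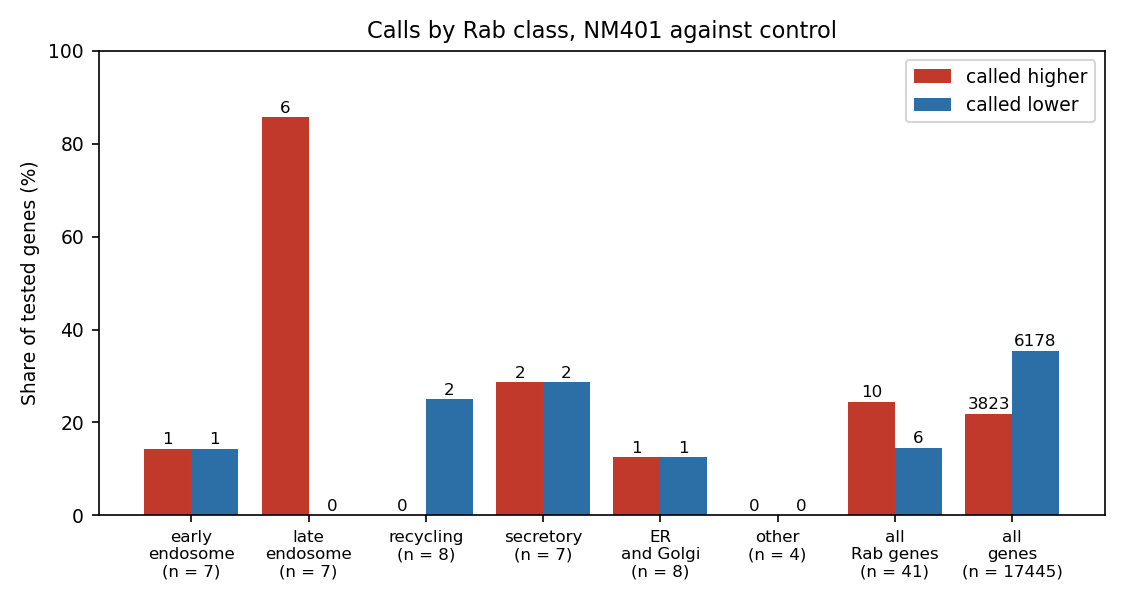
Share of tested genes called higher (red) and lower (blue) with NM401 in each Rab class, in all Rab genes and in all genes, in percent, with the number of genes called above each bar and the number tested under each label. The late endosome class has 6 of 7 genes called higher and 0 lower, and the recycling class has 0 higher and 2 lower.

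**Figure D2:**
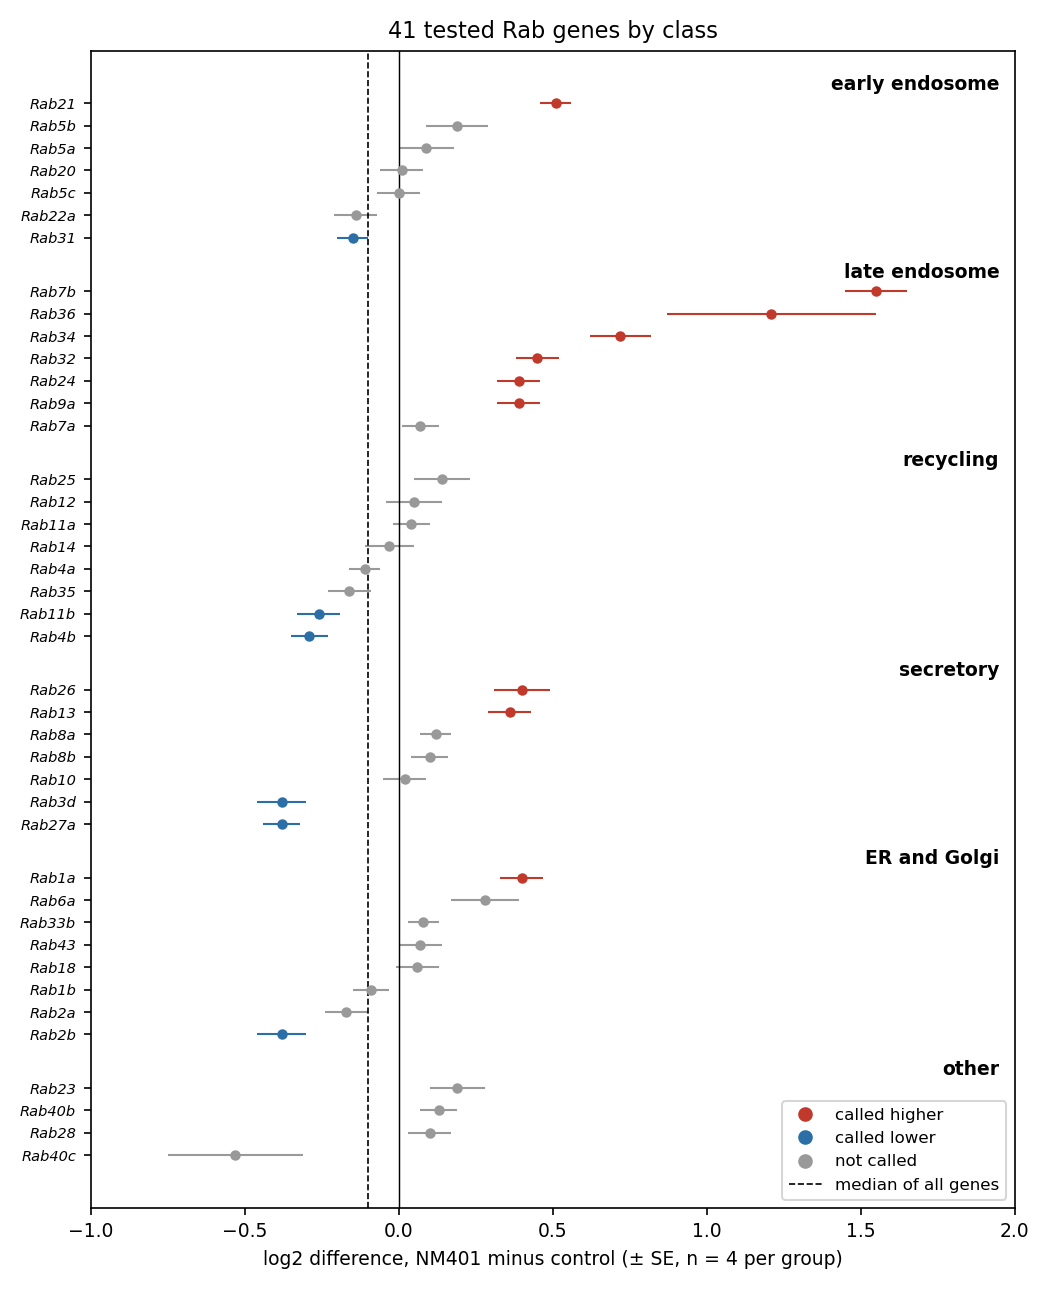
Log2 difference, NM401 minus control, of the 41 tested Rab genes with its SE (n = 4 arrays per group), grouped by class and coloured by call. Rab7b (1.55), Rab36 (1.21) and Rab34 (0.72) lie farthest to the right, and the dashed line is the median of all genes (-0.10).

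The late endosome and lysosome class was higher in 6 of its 7 tested genes and lower in 0, which is 85.7% against 21.9% of all genes. The classes were set with earlier results of these data known, so this share depends on how genes were placed and is not a test. Rab34 was placed here, and Rab20, also linked to phagosomes, in the early endosome class, at a difference of 0.01. Rab7b, Rab36, Rab34, Rab32, Rab9a and Rab24 rose, and Rab7a, the main Rab of the class, did not pass. The median log2 difference of the 7 genes was 0.45 and the range was 0.07 to 1.55. Over the alternative settings the median stayed between 0.37 and 0.66, with the lowest in the deposited series values. The count of 6 became 3 with slide as a block (Rab7b, Rab34 and Rab32) and 1 within slide 1 (Rab7b), and it was 5 to 7 in the other settings. All 7 differences were above 0 within slide 1.

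Rab7b, which directs traffic between late endosomes and the trans-Golgi network and in mouse macrophages lowers Toll-like receptor signalling, had the widest difference of the 41 genes. Its log2 signal was -0.80, -0.60, -0.53 and -0.49 on NM401 arrays 1 to 4, against -2.38, -1.97, -2.08 and -2.19 on control arrays 1 to 4 (probe at chr13:44638107-44638166, rn4). Every NM401 array lay more than 1 log2 unit above every control array. The difference was 1.55 ± 0.10 (SE, n = 4 per group), or 2.93-fold (limma, adjusted p = 4.57e-05). A second Rab7b probe was 2.14-fold higher and was called too, and another was not above background by the software's flag. Rab7b was called under all 18 alternative settings, with differences from 1.31 to 1.75.

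Rab34 encodes a GTPase that positions lysosomes and takes part in phagosome maturation in mouse macrophages. Its log2 signal was -1.30, -1.36, -1.43 and -1.37 on NM401 arrays, against -1.89, -1.95, -2.12 and -2.37 on control arrays. The groups did not overlap, and the control arrays were spread more widely (SD 0.21) than the NM401 arrays (SD 0.05). The difference was 0.72 ± 0.10, or 1.64-fold (limma, adjusted p = 0.000727; probe at chr10:64443124-64443183, rn4). Rab36, a close relative that shares with Rab34 the binding of the lysosome adaptor RILP, stood at -5.27, -4.11, -5.26 and -4.94 on NM401 arrays, against -6.75, -6.19, -6.07 and -5.42 on control arrays. It was well above background on all 4 NM401 arrays but on 2 of 4 control arrays, so it lay near the floor of the measurement. Its difference of 1.21 ± 0.34 (limma, adjusted p = 0.0157) became -0.02 after normexp background correction and 0.15 in the deposited series values, and was lost as a call in both. The other Rab36 probes were dimmer and not tested, and their means were lower on NM401 than on control arrays. These were -8.40 against -7.17, -6.91 against -6.35 and -8.67 against -7.62. These probes were well above background on at most 1 array of a group. Every Rab probe well above background on 0 arrays also had a lower mean on NM401 arrays, for example Rab3b at -8.79 against -8.30. The lower means of the dim Rab36 probes are therefore not read as a difference in transcript level.

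Rab32 acts in the formation of lysosome-related organelles and at mitochondria. Its values were -0.35, -0.55, -0.40 and -0.45 on NM401 arrays, against -0.78, -0.89, -1.01 and -0.88 on control arrays, with no overlap. The difference was 0.45 ± 0.07, or 1.37-fold (limma, adjusted p = 0.000968; probe at chr1:5204490-5204549, rn4). Rab9a returns mannose 6-phosphate receptors, which carry lysosomal enzymes, from late endosomes to the trans-Golgi network. It stood at -1.65, -1.56, -1.60 and -1.55 on NM401 arrays, against -1.96, -1.86, -1.97 and -2.16 on control arrays, and the groups did not overlap. The difference was 0.39 ± 0.07, or 1.31-fold (limma, adjusted p = 0.00234; probe at chrX:48686623-48686682, rn4). Rab24, linked to autophagy, averaged 0.67 ± 0.09 on NM401 arrays and 0.28 ± 0.07 on control arrays (SD, n = 4 each), a difference of 0.39 ± 0.07 (limma, adjusted p = 0.00151). Rab9a and Rab24 were not called with slide as a block, at differences of 0.33 and 0.27.

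Rab7a, which drives fusion of late endosomes and phagosomes with lysosomes, stood at -0.54, -0.61, -0.68 and -0.65 on NM401 arrays, against -0.69, -0.68, -0.76 and -0.62 on control arrays. The groups overlapped, and the difference was 0.07 ± 0.06 (limma, adjusted p = 0.307). It was called higher in 1 setting, median scaling, at 0.27. The within-array difference Rab7a minus Rab7b was -0.02 ± 0.20 on NM401 arrays and 1.46 ± 0.20 on control arrays (SD, n = 4 each), a shift of -1.48 that does not depend on how arrays are scaled to each other by a constant. The exact permutation p was 0.0286, the smallest possible, and 0.0686 after adjustment over 12 paralogue pairs.

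**Figure D3:**
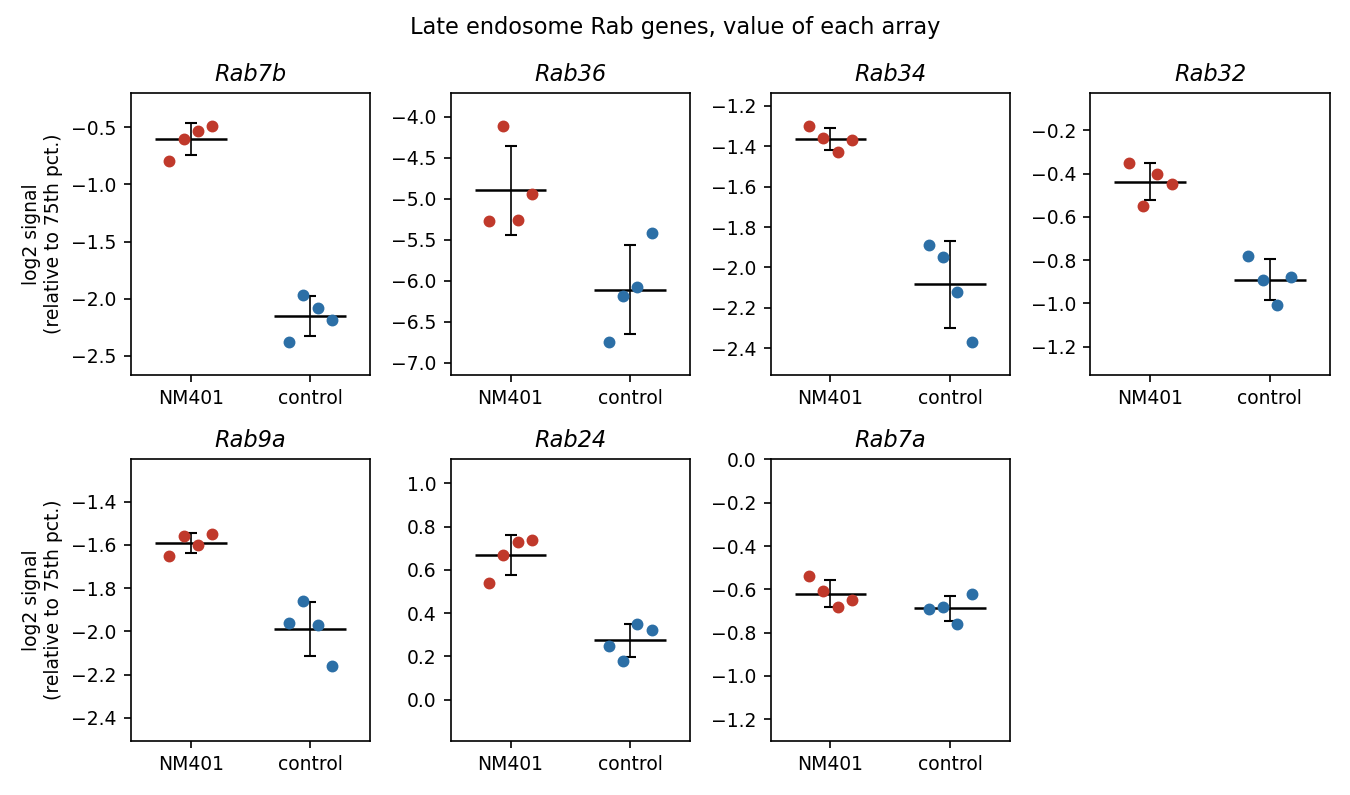
Log2 signal relative to the array's 75th percentile for the 7 tested late endosome Rab genes, 1 point per array, with the mean and SD of 4 arrays (NM401 left, control right; axes differ in range). The groups are apart in all panels but that of Rab7a, where NM401 arrays run from -0.68 to -0.54 and control arrays from -0.76 to -0.62.

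Across 7 settings of the processing, Rab7b, Rab34, Rab32, Rab9a and Rab24 kept a positive difference, and Rab36 and Rab7a came to within 0.02 of 0 in at least 1 of them.

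**Figure D4:**
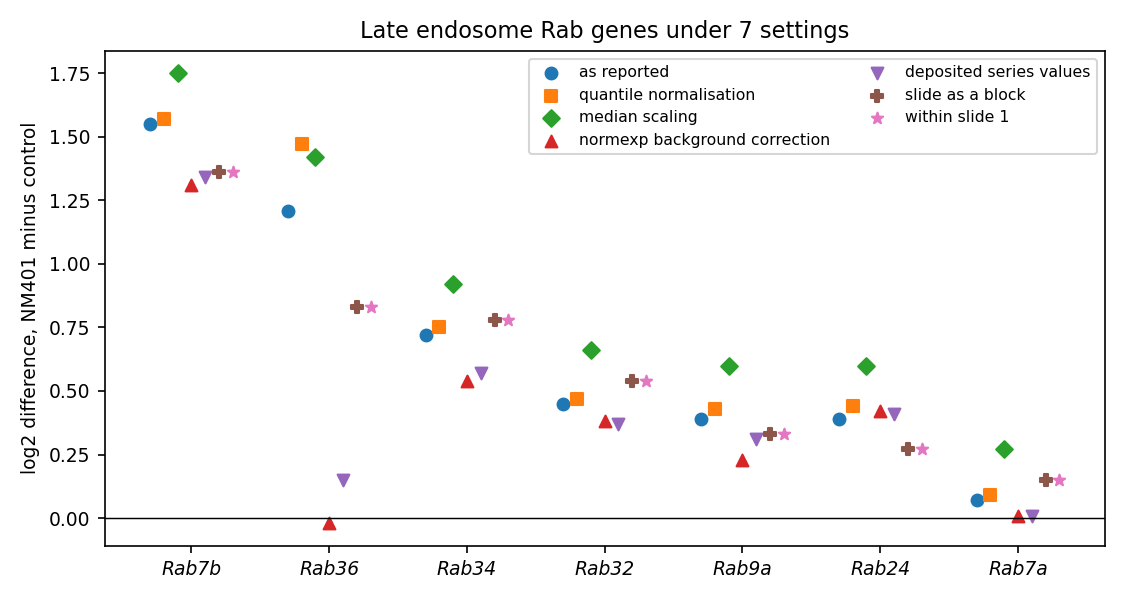
Log2 difference, NM401 minus control, of the 7 tested late endosome Rab genes in 7 settings of scaling, background, deposited values and slide, 1 symbol per setting. Rab7b stays between 1.31 and 1.75 in these settings, while Rab36 runs from -0.02 to 1.47.

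The early endosome class had 1 of 7 tested genes higher, 1 lower and 5 not called, with a median of 0.01. That is 14.3% each way, against 21.9% higher and 35.4% lower over all genes. Rab5a stood at -4.94, -4.96, -4.96 and -4.81 on NM401 arrays, against -5.21, -4.98, -5.02 and -4.80 on control arrays. Rab5b stood at 1.14, 1.00, 1.13 and 0.96 on NM401 arrays, against 0.99, 1.00, 0.57 and 0.91 on control arrays. Rab5c stood at 1.22, 1.02, 1.14 and 1.01 on NM401 arrays, against 1.01, 1.21, 1.14 and 1.02 on control arrays. In all 3 genes, whose proteins tether and fuse early endosomes and young phagosomes, the groups overlapped. Their differences were 0.09 ± 0.09, 0.19 ± 0.10 and 0.00 ± 0.07, with limma adjusted p of 0.442, 0.154 and 0.968. Rab5a lay near the background, and after normexp background correction its difference was -0.40 and called lower.

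Rab21, an early endosome GTPase that binds integrins and takes part in their uptake, was the called gene with the tightest groups. It stood at 0.17, 0.18, 0.11 and 0.19 on NM401 arrays, against -0.36, -0.37, -0.38 and -0.30 on control arrays. The difference of 0.51 ± 0.05, or 1.43-fold, passed with an adjusted p of 0.000118 (limma; probe at chr7:54550309-54550368, rn4) and was called under all 18 alternative settings. Rab31, which carries cargo between the trans-Golgi network and endosomes, stood at 2.27, 2.33, 2.24 and 2.30 on NM401 arrays, against 2.43, 2.44, 2.50 and 2.36 on control arrays. Its difference of -0.15 ± 0.05 (limma, adjusted p = 0.0365) lost its call when 1 array was left out, for 7 of the 8 arrays, and its sign turned after quantile normalisation (0.0029) and median scaling (0.05). Rab20, which associates with phagosomes, stood at -1.49, -1.69, -1.73 and -1.72 on NM401 arrays, against -1.66, -1.74, -1.57 and -1.69 on control arrays. The groups overlapped, with a difference of 0.01 ± 0.07. For Rab22a, of early and recycling endosomes, the brightest probe gave -0.14, while the other 2 tested probes gave 0.24 and 0.27 and were called higher, so its direction is not settled.

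The recycling class had 0 of 8 tested genes higher (limma, also 0 at an unadjusted p below 0.05) and 2 lower, with a median of -0.07. The 25% called lower was less than the 35.4% of all genes, of which 21.9% were higher. Rab4b, of fast recycling to the cell surface, stood at 1.04, 1.01, 1.06 and 1.06 on NM401 arrays, against 1.35, 1.25, 1.29 and 1.46 on control arrays. The groups did not overlap, and the difference was -0.29 ± 0.06 (limma, adjusted p = 0.00308; probe at chr1:82242925-82242984, rn4). A dimmer Rab4b probe gave 0.24 and was not called, and the mean of both probes gave -0.03. Rab11b, of the perinuclear recycling endosome, stood at -1.41, -1.51, -1.30 and -1.43 on NM401 arrays, against -1.17, -1.23, -1.19 and -1.01 on control arrays. Its difference was -0.26 ± 0.07 (limma, adjusted p = 0.0133), and both genes lost the call after median scaling, at -0.09 for Rab4b and -0.06 for Rab11b. Within slide 1 neither was called, although the differences were as large (-0.30 for Rab4b and -0.26 for Rab11b), and with slide as a block Rab11b was not called at -0.26 (limma, adjusted p = 0.128).

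The remaining recycling genes did not pass. Rab4a stood at -0.38, -0.38, -0.35 and -0.33 on NM401 arrays, against -0.26, -0.22, -0.31 and -0.22 on control arrays, and the groups did not overlap although the adjusted p was 0.0779 (limma, difference -0.11). Rab11a stood at 1.80, 1.76, 1.71 and 1.67 on NM401 arrays, against 1.62, 1.65, 1.74 and 1.75 on control arrays, a difference of 0.04. Rab14, which works between endosomes and the Golgi, stood at 3.35, 3.27, 3.27 and 3.36 on NM401 arrays, against 3.46, 3.45, 3.30 and 3.13 on control arrays, a difference of -0.03. In Rab11a and Rab14 the groups overlapped. A second Rab14 probe gave -0.22 with no overlap and was called lower (limma, adjusted p = 0.0193), and another gave -0.12 and was not called, so the result for Rab14 depends on the probe. Rab35, of fast recycling and actin control, stood at 2.96, 2.79, 2.70 and 2.76 on NM401 arrays, against 2.99, 3.00, 2.99 and 2.85 on control arrays. NM401 array 1 lay within the control range, and the difference was -0.16 ± 0.07 (limma, adjusted p = 0.0924). Without NM401 replicate 1 the Rab35 difference was -0.21 and was called lower. Rab12 differed by 0.05 and Rab25 by 0.14.

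The secretory class had 2 of 7 tested genes higher and 2 lower, with a median of 0.10. That is 28.6% each way, near the 21.9% higher and 35.4% lower of all genes. Rab27a, which docks secretory lysosomes and multivesicular bodies at the cell surface, stood at -1.15, -1.05, -1.02 and -0.99 on NM401 arrays, against -0.62, -0.58, -0.78 and -0.71 on control arrays. Rab3d, a GTPase of secretory granules, stood at -2.99, -3.28, -3.24 and -3.25 on NM401 arrays, against -2.75, -2.81, -2.87 and -2.82 on control arrays. In both genes every NM401 array lay below every control array. The difference was -0.38 ± 0.06 for Rab27a and -0.38 ± 0.08 for Rab3d (limma, adjusted p = 0.00171 and 0.00347; probes at chr8:77861002-77861061 and chr8:21012632-21012691, rn4). After median scaling both stood at -0.17 and neither was called. With slide as a block Rab27a kept the call at -0.48 and Rab3d did not at -0.17.

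Rab13, which moves vesicles from the trans-Golgi network and recycling endosomes to the plasma membrane, stood at 0.03, 0.20, 0.29 and 0.25 on NM401 arrays, against -0.24, -0.21, -0.11 and -0.12 on control arrays. Rab26, of secretory granules and lysosome-linked vesicles, stood at -1.90, -1.75, -1.64 and -1.76 on NM401 arrays, against -2.29, -2.26, -1.98 and -2.13 on control arrays. Neither gene had overlapping groups. The differences were 0.36 ± 0.07 for Rab13 and 0.40 ± 0.09 for Rab26 (limma, adjusted p = 0.00312 and 0.00517), and neither was called with slide as a block, at 0.20 and 0.26. Rab8a, of traffic from the Golgi to the plasma membrane, stood at 1.97, 1.92, 1.94 and 1.92 on NM401 arrays, against 1.84, 1.87, 1.81 and 1.74 on control arrays. Its groups did not overlap but its difference of 0.12 ± 0.05 did not pass (limma, adjusted p = 0.0618). Rab8b differed by 0.10 and Rab10 by 0.02, and a dimmer Rab10 probe gave 0.26 and was called higher (limma, adjusted p = 0.0288).

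**Figure D5:**
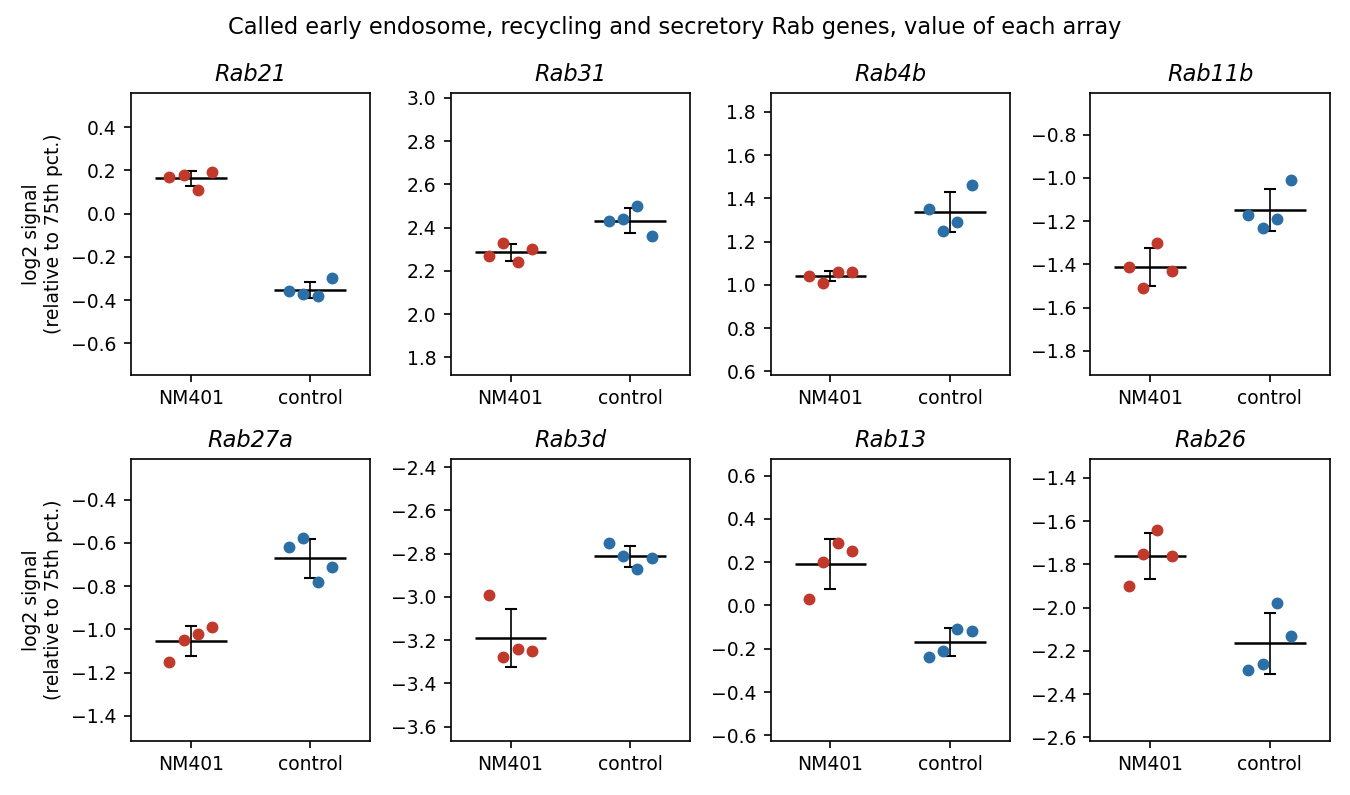
Log2 signal relative to the array's 75th percentile for the 8 called genes of the early endosome, recycling and secretory classes, 1 point per array, with the mean and SD of 4 arrays (NM401 left, control right; axes of different range). Rab21, Rab13 and Rab26 are higher with NM401 and the other 5 genes are lower, with no overlap in any panel.

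The ER and Golgi class had 1 of 8 tested genes higher and 1 lower, with a median of 0.07. That is 12.5% each way, against 21.9% higher and 35.4% lower over all genes. Rab1a, needed for transport from the ER to the Golgi, stood at 3.29, 3.12, 3.10 and 3.12 on NM401 arrays, against 2.72, 2.90, 2.71 and 2.68 on control arrays. Its difference was 0.40 ± 0.07 (limma, adjusted p = 0.00191; probe at chr14:101027696-101027755, rn4), and a second probe gave 0.51 and was called too. Rab2b, of the ER-Golgi intermediate compartment, stood at -0.64, -0.81, -0.78 and -0.81 on NM401 arrays, against -0.19, -0.39, -0.40 and -0.51 on control arrays. Neither of these 2 genes had overlapping groups. The Rab2b difference was -0.38 ± 0.08 (limma, adjusted p = 0.00424; -0.18 after median scaling and -0.26 with slide as a block, not called in either), and its other 3 tested probes gave -0.34, -0.37 and -0.41, of which 2 were called lower.

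Rab2a stood at 1.88, 1.61, 1.70 and 1.79 on NM401 arrays, against 1.85, 1.92, 1.97 and 1.91 on control arrays, with overlap and a difference of -0.17 (limma, adjusted p = 0.0726). Rab6a, of retrograde traffic through the Golgi, stood at -0.70, -0.89, -0.94 and -0.97 on NM401 arrays, against -1.08, -0.91, -1.41 and -1.23 on control arrays, with overlap and a difference of 0.28 (limma, adjusted p = 0.0671). Neither gene passed. Rab1b gave -0.09 with its brightest probe, which did not pass, and 0.46 with a second probe, which was called higher. Rab18, Rab43 and Rab33b differed by 0.06, 0.07 and 0.08. The other 3 Rab18 probes gave 0.11, -0.13 and -0.30, of which the last was called lower (limma, adjusted p = 0.0324), so the direction of Rab18 is not settled. Among the 4 genes outside these classes 0 were called by limma, and 1, Rab40c, had an unadjusted p below 0.05 (0.0398): Rab40c differed by -0.53, Rab28 by 0.10, Rab40b by 0.13 and Rab23, of the primary cilium, by 0.19. Leaving out 1 array moved Rab40c between -0.67 and -0.31, with -0.31 without control replicate 4, and it was called lower after normexp correction (-0.71) and in the deposited series values (-0.66). A dimmer Rab23 probe, well above background on 2 of 4 control arrays, gave 1.29 and was called higher.

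Paralogues can be compared on the same array without any scaling constant between arrays. Of 12 pairs with both genes tested, 5 had within-array differences that did not overlap between the groups, each with an exact permutation p of 0.0286, two-sided, and an adjusted p of 0.0686, so 0 passed after adjustment over the 12 pairs. Besides Rab7a and Rab7b these were Rab1a minus Rab1b, at 0.48 ± 0.04 on NM401 arrays and -0.02 ± 0.08 on control arrays (SD, n = 4 each, shift 0.49), and Rab11a minus Rab11b, at 3.15 ± 0.12 on NM401 arrays and 2.84 ± 0.08 on control arrays (shift 0.31). Rab4a minus Rab4b shifted by 0.18 (-0.08 with the mean of all tested probes) and Rab40b minus Rab40c by 0.66. The 3 Rab5 pairs shifted by -0.10, 0.08 and 0.19, and in each of them the groups overlapped. After quantile normalisation, which reshapes each array's values, 7 pairs passed at an adjusted p of 0.049.

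The 13 Rab genes left untested were well above background on at most 1 of the 8 arrays with any probe. They were Rab15 and Rab17 of recycling endosomes, Rab3a, Rab3b, Rab3c and Rab27b of regulated secretion, Rab9b, Rab38 and Rab39a of late endosomes and lysosome-related organelles, and Rab6b, Rab19, Rab30 and Rab33a of the Golgi. Of Rab27a and Rab27b, which act in secretion of lysosome-related organelles, Rab27a passed the background flag on 8 arrays and Rab27b on 0. Rab3a, the Rab3 of synaptic vesicles, passed it on 1 array and Rab3d on 8.

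The genes that switch, prenylate and read Rab proteins were taken from a list of 140 symbols, of which 110 were tested. Of these 27 were higher and 30 lower and 53 did not pass, against 21.9% and 35.4% of all genes, and their median was -0.04 against -0.10 over all genes. Values are log2 differences. GTPase-activating proteins had 5 of 27 higher and 10 lower. Tbc1d10c, Tbc1d5, which acts on Rab7, and Tbc1d4, which acts on Rab10 and Rab8, fell by 1.04 ± 0.08, 0.81 ± 0.07 and 0.91 ± 0.08 (log2 units with SE, 4 arrays a group; limma, adjusted p = 6.01e-05, 8.04e-05 and 0.000119). Tbc1d9, Rab3gap2 and Tbc1d9b rose by 0.36, 0.21 and 0.19, and Rab3gap2 stood at -0.18 when all its probes were averaged, while Tbc1d9b lost its call in 9 of 18 settings. Exchange factors had 6 of 34 higher and 9 lower. Hps1, part of the exchange factor of Rab32 and Rab38, fell by 0.80 ± 0.06, and Trappc9 and Trappc10, subunits of the TRAPPII exchange factor, fell by 1.03 ± 0.09 and 0.46 ± 0.06 (limma, adjusted p = 8.04e-05, 0.000115 and 5e-04). Dennd3, the exchange factor of Rab12, rose by 0.52, Trappc2 by 0.73 and Ccz1b, part of the exchange factor of Rab7, by 0.27. Ccz1b lost its call in 7 of 18 settings. Trappc2 was dim, and its difference was -0.21 after normexp background correction.

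Effectors had 11 of 34 higher and 7 lower, against 21.9% higher and 35.4% lower over all genes. The lipid kinase subunits Pik3r4 and Pik3c3, which make phosphatidylinositol 3-phosphate on endosomes and phagosomes, fell by 0.66 ± 0.06 and 0.55 ± 0.05, and Unc13d, the Rab27a partner in granule priming, fell by 1.11 ± 0.06 (limma, adjusted p = 0.000114, 0.000148 and 3.77e-05). Rims2, a Rab3 effector, rose by 0.97 ± 0.10, Bicd2, a motor adaptor of Rab6, by 0.52 ± 0.07, and Lrrk2, a kinase that phosphorylates several Rabs, by 0.57 ± 0.09 (limma, adjusted p = 0.000197, 0.000449 and 0.00123). Of the factors that prenylate and recycle Rabs, 5 of 15 were higher and 4 lower. Gdi2, which draws GDP-bound Rabs off membranes, differed by -0.09 and did not pass (0.12 after median scaling). The 2 subunits of Rab geranylgeranyl transferase went in opposite directions: Rabggtb rose by 0.63 ± 0.07 and Rabggta fell by 0.46 ± 0.05 (limma, adjusted p = 0.000214 and 0.000178), and both calls held under all 18 alternative settings. Chml, an escort protein that presents Rabs to this enzyme, fell by 0.48 and Yipf3 by 0.42, while Rabif rose by 0.21. With slide as a block Chml (-0.28), Rabif (0.26) and Rab3gap2 (0.12) were not called.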

How the data were processed

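Total RNA of each culture was made into Cy3-labelled cRNA for Agilent arrays with 1 colour, per the labels. Spot intensity values were read by the authors with Agilent Feature Extraction (version 11.0.1.1, as the headers state), whose processed signal has the background removed but no scaling across arrays. The deposited series values equalled the spot's median intensity in 503808 of 503808 cases. No spot was saturated.

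From these, outlier spots were dropped, spots of a probe were averaged as log2 of the signal minus the array's 75th percentile over non-control spots, and a probe was tested if well above background on at least 4 of 8 arrays. A gene was its tested probe with the highest mean signal. The groups were compared with limma 3.58.1 (lmFit and eBayes, R 4.3.3, data.table in version 1.17.8), two-sided, with p-values adjusted by Benjamini-Hochberg over 21685 probes and called below 0.05; the code was tested on simulated data. Paralogues were compared by the exact permutation test. The number of arrays, 4 per group, limits the precision.

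Values of every array are given for the usual members of each class and for up to 3 called genes per class and direction with no overlap; partner genes are up to 3 per role and direction, by p. The members, classes, partner and marker lists were chosen with earlier results of these data known. Classes and partners came from general knowledge, and a Rab can act at several organelles. The RefSeq gene list (build GRCr8) held the accession of 69 of the 85 Rab probes, with the same symbol for 69. Replicate numbers did not pair the samples. The alternatives changed the background correction, scaling, probe filter, source of the values, slide, replicate block, arrays left out and the probe used for a gene.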

Additional observations from a re-analysis of the deposited data

Results flagged for a closer look

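In 7 of 82 groups of 4 arrays (41 Rab genes in 2 groups), 1 array stood apart from the other 3 by Dixon's test, which chance passes in about 1 in 20 groups. In 5 of the 7 this was NM401 replicate 1, the NM401 array on slide 1. Rab1a stood at 3.29 on that array, with the other NM401 arrays at 3.10 to 3.12. Rab20 stood at -1.49 there, with the others at -1.73 to -1.69. Rab2b stood at -0.64 there, with the others at -0.81 to -0.78. Rab3d stood at -2.99 there, with the others at -3.28 to -3.24. Rab40b stood at -1.95 there, with the others at -2.10 to -2.08. In NM401 replicate 4, Rab5a stood at -4.81, with the others at -4.96 to -4.94. In control replicate 4, Rab35 stood at 2.85, with the other control arrays at 2.99 to 3.00. NM401 replicate 1 lay nearer to the control values than the other NM401 arrays did for Rab3d and Rab2b, and farther from them for Rab40b and Rab1a. The part of the slide in these values was not tested.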

How the results depend on the processing

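Rab7b and Rab21 kept their call in all 18 alternatives, and no array left out ended the call of a late endosome gene. Median scaling gave 25 Rab genes higher and 0 lower, 45 and 15 partner genes, 6113 and 3360 genes over all, and a Rab median of 0.27; it turned Rab14 to 0.18, Rab1b to 0.12, Rab22a to 0.06, Rab2a to 0.04, Rab31 to 0.05, Rab35 to 0.05, Rab4a to 0.09 and Gdi2 to 0.12. With slide as a block, which rests on NM401 replicate 1, the counts were 6 and 2 Rab genes, 3 late endosome genes higher, 12 partner genes higher, and 2216 and 3525 genes over all, with a Rab median of 0.13. Within slide 1 they were 2 and 0, 1, 5 and 10 partner genes, and 755 and 1361, with 0.13. In both, Rab14 and Rab1b stood at 0.01, Rab35 at 0.0019 and Rab43 at -0.11, and Rab5a minus Rab5c within slide 1 at -0.06. Rab23 (0.38) was among the genes called higher with slide as a block, but was not called without the block. Normexp correction gave 9407 genes lower over all (22.6% of calls higher, 25% in the deposited series values) and a Rab median of 0.01, and turned Rab10 to -0.0033, Rab14 to 0.04, Rab20 to -0.04, Rab25 to -0.26, Rab36 to -0.02, Rab43 to -0.01, Rab5a to -0.40, Rab5c to -0.03, Trappc2 to -0.21 and Eea1 to -0.02, and the pairs Rab5a minus Rab5c to -0.37, Rab22a minus Rab31 to -0.11 and Rab34 minus Rab36 to 0.55. Quantile normalisation gave a Rab median of 0.16 and 7 pairs past the threshold, and turned Rab14 to 0.18, Rab1b to 0.08, Rab31 to 0.0029, Rab35 to 0.02, Gdi2 to 0.04, Rab5a minus Rab5b to 0.01 and Rab22a minus Rab31 to -0.12. The deposited series values gave a Rab median of 0.03, and turned Rab11a to -0.01, Rab14 to 0.03, Rab25 to -0.19, Rab43 to -0.01, Rab5a to -0.29, Rab5c to -0.05, Trappc2 to -0.10, Rab5a minus Rab5c to -0.24, Rab22a minus Rab31 to -0.10 and Rab34 minus Rab36 to 0.42. The mean of all probes gave a Rab median of 0.12, and turned Rab12 to -0.08, Rab18 to -0.06, Rab1b to 0.19 (called), Rab22a to 0.12, Rab3gap2 to -0.18 and Rab4a minus Rab4b to -0.08. It also gave calls to Rab23 (0.74) and Rab35 (-0.21) and ended that of Rab4b (-0.03). With no filter 13 partner genes were higher, where more probes were tested. Leaving out 1 array moved Rab10 between -0.03 and 0.05, Rab12 between -0.02 and 0.09, Rab14 between -0.09 and 0.01, Rab20 between -0.05 and 0.04, Rab5c between -0.04 and 0.04 and Rab22a minus Rab31 between -0.05 and 0.08. Without control replicate 2, Rab22a (-0.20), Rab23 (0.25), Rab40c (-0.67) and Rab6a (0.36) were called, and without NM401 replicate 1, Rab2a (-0.21) and Rab35 (-0.21). The replicate block, whose numbers had correlations of 0.188, -0.00662, 0.0853 and -0.0561, gave 10 Rab genes higher and 5 lower, Rab31 losing its call, and changed no other Rab call. The slide block was not run for paralogue pairs. The late endosome count and the partner gene alternatives were chosen after seeing the data. Other causes were not tested. Signal near background limits Rab36, Rab5a and Rab25.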

Other observations

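Further Rab effectors went both ways, and among those of Rab5 some were called, while Appl1, Appl2 and Rbsn were not. Of the Rab7 effectors, Rilp (-0.11), Fyco1 (-0.03) and Osbpl1a (-0.01) were not called. Nor were Rab11fip2 (-0.46), Rab11fip3 (-0.06) and Rab11fip4 (-0.06) among those of Rab11. Rabep1, a Rab5 effector bound to the exchange factor Rabgef1, rose by 0.34 ± 0.06 on the log2 scale and Rufy1 by 0.35 ± 0.07 (SE, 4 arrays per group; limma, adjusted p = 0.00151 and 0.00379). Eea1, the tether that bridges Rab5 membranes, rose by 0.98 ± 0.19 (limma, adjusted p = 0.00305), but it was dim, well above background on 4 NM401 arrays and 3 control arrays, and stood at -0.02 after normexp background correction and 0.12 in the deposited series values, where it was not called. Plekhm1, an adaptor of Rab7 in fusion with lysosomes, fell by 0.35 ± 0.08 (limma, adjusted p = 0.00591). Of the Rab11 effectors, Rab11fip1 rose by 0.47 ± 0.10 and Rab11fip5 fell by 0.35 ± 0.07 (limma, adjusted p = 0.00415 and 0.00324). Plekhm1 and Rab11fip5 lost their calls after median scaling and Rab11fip1 and Rufy1 with slide as a block, and within slide 1, where 1 NM401 array was compared, none of these 6 genes was called, at differences of 1.30 for Eea1, 0.40 for Rabep1, 0.29 for Rufy1, -0.49 for Plekhm1, 0.44 for Rab11fip1 and -0.39 for Rab11fip5. These genes were chosen after their values were seen.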
